A study of Mus musculus with 13 samples.

Results

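Plasmacytoid dendritic cells (pDCs) and CD11b conventional dendritic cells (cDCs) of the mouse spleen were compared across genes. The members were the 4 arrays that the sample titles name as pDCs (2 replicates) or CD11b cDCs (2 replicates), out of 13 arrays of 6 spleen leukocyte populations in the series. All 4 arrays held RNA of female wild-type C57BL/6 mice, 6 to 8 weeks old and with no treatment named, and each came from pooled spleens of 10 to 15 animals, so an array is a pool and not an animal. pDCs were sorted as lineage-negative CD11c+ cells with high binding of the 120G8 antibody, and CD11b cDCs as lineage-negative, CD11c-high, CD11b+ cells with low or no 120G8 binding, in 2 independent experiments. Expression was read on Affymetrix Mouse430_2 arrays, which cover the mouse genome with probe sets near the 3' ends of transcripts, as a MAS5 signal, a linear intensity with the mean of each array, trimmed by 2% at both ends, scaled to 100.

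pDCs are dendritic cells with a round, antibody-secreting-cell-like shape that release large amounts of type I interferon when Toll-like receptors in their endosomes meet viral nucleic acid, and they are weak at priming naive T cells in the resting state. CD11b cDCs are the most frequent cDCs of the spleen, live in and around the marginal zone, and take up antigen and present it on MHC class II to CD4 T cells. Both arise from bone marrow progenitors that carry the cytokine receptor Flt3, with the E protein Tcf4 (E2-2) required for the pDC fate and opposed by Id2, which is needed for other DC fates.

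Signals under 20 were set to 20 (the floor) before log2 transformation, 9391 genes were tested because every replicate of some population, of the 6, reached a signal of 50, and 8219 of them reached 50 on both arrays of pDCs or both of CD11b cDCs. Differences are given as log2(pDC) minus log2(CD11b cDC) with the standard error of a limma model over all 13 arrays. The spread behind this error is shared by the 6 populations, so a wide error can come from arrays outside the 2 populations compared. A gene was called when its Benjamini-Hochberg adjusted p was below 0.05. Of the genes tested, 2802 (29.8%) were called, 1347 (14.3%) higher in pDCs and 1455 (15.5%) higher in CD11b cDCs. Of these, 940 (10%) and 1053 (11.2%) differed at least 2-fold, 366 and 462 at least 4-fold, and 84 and 75 at least 16-fold. The arrays of the populations did not overlap, in the direction of pDCs, for 33.1% of the genes tested, and in that of CD11b cDCs for 35.3%. The replicates correlated at 0.98 in pDCs and 0.987 in CD11b cDCs over the genes tested, and arrays of different populations at 0.796 to 0.802, across genes that are not independent replicates. Between 55.0 and 57.2% of the probe sets of these arrays lay below the floor. Each population was sorted and read in bulk, so that a gene present in few cells and a gene at a low level in each cell cannot be told apart. The 2 pools of a population may not span the variation between mice, and the number of arrays limits the precision. CD11b cDC replicate 1 was scanned on another day than the other 3 arrays, and the ratio of 3' to 5' GAPDH signal was 4.12 and 5.99 in pDCs against 3.97 and 3.49 in CD11b cDCs. The part of either in the differences was not tested beyond the scan-day block given with the processing alternatives.

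**Figure D1:**
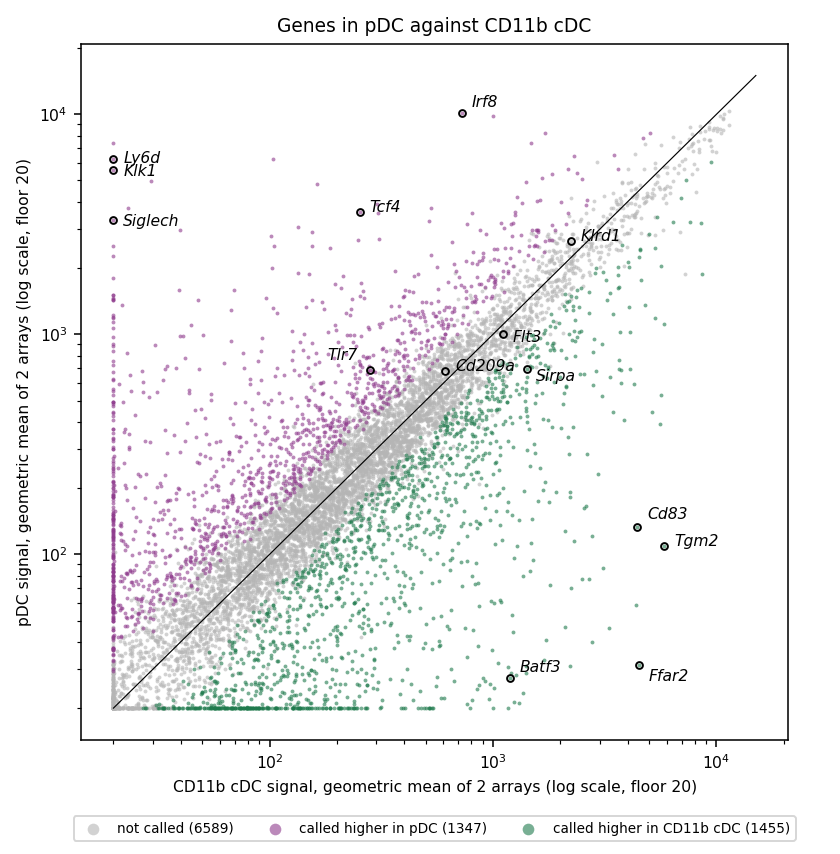
Signal of the 9391 genes tested, as the geometric mean of the 2 arrays of CD11b cDCs (horizontal) and of pDCs (vertical), both on log axes with signals under 20 set to 20. Each point is a gene, coloured by its call, the line marks equal signal, and the column of points at the left edge holds genes such as Siglech, Ly6d and Klk1 that were below 20 in CD11b cDCs.

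The labels were checked against their defining markers. Siglech, a lectin-like receptor that marks mouse pDCs, read 3613 and 3038 in pDCs and 1.804 and 2.604 in CD11b cDCs. Both pDC arrays were high and both CD11b cDC arrays lay far below the floor, so that it was at least 166-fold higher in pDCs (log2 difference 7.37, SE 0.18, adjusted p = 1.5e-09). Sirpa, a receptor for CD47 used to mark CD11b cDCs, read 731 and 660.0 in pDCs and 1516 and 1317 in CD11b cDCs. The groups did not overlap and pDCs carried Sirpa too, far above the floor. The log2 difference was -1.02 (SE 0.27, adjusted p = 0.0137), and its call was lost in 5 of 15 alternative settings, among them without pDC replicate 2 and without CD11b cDC replicate 1. The genes behind the sort followed it and are therefore a description only. Bst2, the antigen of the 120G8 antibody, read 5779.9 and 4035 in pDCs and 149 and 177 in CD11b cDCs. Itgam, the CD11b chain, read 14.9 and 17.3 in pDCs and 158 and 174 in CD11b cDCs, and Itgax, the CD11c chain, read 1245 and 1409 in pDCs and 4098 and 4016 in CD11b cDCs. The arrays therefore carried the markers that their titles state, of which Siglech and Sirpa alone were outside the sort. Siglech set the populations far apart, whereas Sirpa was 2.03-fold higher in CD11b cDCs.

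The genes furthest towards pDCs were mostly ones that CD11b cDCs did not express above the floor. The uncharacterised gene D13Ertd608e read 7504 and 7267 in pDCs and 6.07 and 11.7 in CD11b cDCs and was at least 369-fold higher in pDCs. Klk1, which encodes a kallikrein protease, read 6929.5 and 5688 in pDCs and 11.7 and 9.796 in CD11b cDCs and was at least 314-fold higher. Upb1, an enzyme of pyrimidine breakdown, read 2771 and 2273 in pDCs and 12.5 and 18.9 in CD11b cDCs (at least 125-fold). In each of these the pDC replicates lay close together and no CD11b cDC array reached the floor. The transporter gene Slco4a1 (2480.1 and 2062 in pDCs and 11.9 and 16.4 in CD11b cDCs), the TGF-beta family ligand Lefty1 (2083 and 1571 in pDCs and 3.65 and 7.97 in CD11b cDCs), the choline dehydrogenase gene Chdh (1504 and 1499 in pDCs and 2.26 and 8.32 in CD11b cDCs) and Cmah (1584 and 1439 in pDCs and 0.934 and 11.4 in CD11b cDCs), whose product makes the sialic acid Neu5Gc, followed. Smim5, which encodes a small membrane protein, read 3426 and 2603 in pDCs and 25.2 and 62.9 in CD11b cDCs. The first 4 lay below the floor on both CD11b cDC arrays. Among them Slco4a1 had the widest error in the fit over 13 arrays (SE 0.79 against 0.14 for Chdh). Over all genes, 57 read at least 200 on both pDC arrays and below the floor on both CD11b cDC arrays, and 27 showed the reverse.

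The genes furthest towards CD11b cDCs more often kept a low signal in pDCs. Ffar2, a receptor for short-chain fatty acids, read 48.8 and 14.8 in pDCs and 4232 and 4773 in CD11b cDCs (log2 difference -7.17, SE 0.900, adjusted p = 0.000111). Asb2, a ubiquitin ligase subunit, read 47.7 and 71.9 in pDCs and 4197 and 4541 in CD11b cDCs, and Tgfbi, a secreted matrix protein, read 65.3 and 32.9 in pDCs and 3213 and 3364 in CD11b cDCs. The CD11b cDC arrays stood far above the pDC arrays for all 3 genes and no pDC array reached 100. The transglutaminase gene Tgm2 read 97.6 and 122 in pDCs and 5903 and 5776 in CD11b cDCs, and the chemokine gene Ccl5, whose product attracts T cells and NK cells, read 25.9 and 61.9 in pDCs and 2764 and 2775 in CD11b cDCs. Sirpb1a, a relative of Sirpa, read 17.1 and 22.2 in pDCs and 1185 and 1438 in CD11b cDCs, with a log2 difference of -5.95 (SE 0.16, adjusted p = 1.67e-09). Unlike Sirpa, it was at or near the floor on both pDC arrays. Ube2e2 (16.8 and 16.5 in pDCs and 1285 and 1051 in CD11b cDCs) and the scaffold gene Sash1 (13.8 and 5.51 in pDCs and 1098 and 911 in CD11b cDCs) were below the floor on both pDC arrays, which gave at least 58.1-fold and at least 50-fold higher signal in CD11b cDCs. Tbc1d9 (log2 difference -5.86) and Ppp1r14a (-5.67) completed the 12 largest differences with Dtx1 and Clec4a2, described with the CD11b cDC surface genes.

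Of 17 tested surface and identity genes of pDCs, 17 were higher in pDCs, with a median log2 difference of 4.965 against 0 over all genes tested, of which 14.3% were called in that direction. Without Bst2, which the sort used, the count was 16 of 16. This list and those below were chosen with earlier results of these data known, so their counts are a description and no test. Ly6d, a small GPI-anchored protein that is also a marker of B cell progenitors, read 6094 and 5062 in pDCs and 8.14 and 7.35 in CD11b cDCs and was at least 278-fold higher in pDCs. Ccr9, a receptor for the chemokine Ccl25, read 4877 and 5046 in pDCs and 43.1 and 12.6 in CD11b cDCs (log2 difference 7.401, SE 0.32, adjusted p = 2.71e-08). Atp1b1, a subunit of the sodium pump, read 3430.3 and 4093 in pDCs and 2.698 and 27.02 in CD11b cDCs (log2 difference 7.33, SE 0.27, adjusted p = 1.04e-08). For all 3 genes the pDC arrays were high and the CD11b cDC arrays below 50. Klra17 (Ly49Q), an inhibitory receptor for MHC class I, read 2963 and 3177 in pDCs and 136 and 132 in CD11b cDCs, so that CD11b cDCs kept a signal well above the floor although it was 22.9-fold lower. Cd209d, a C-type lectin, read 960.3 and 818 in pDCs and 1.37 and 2.94 in CD11b cDCs and was at least 44.3-fold higher in pDCs. The smallest difference of the list was 0.73, and the largest 8.29.

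**Figure D2:**
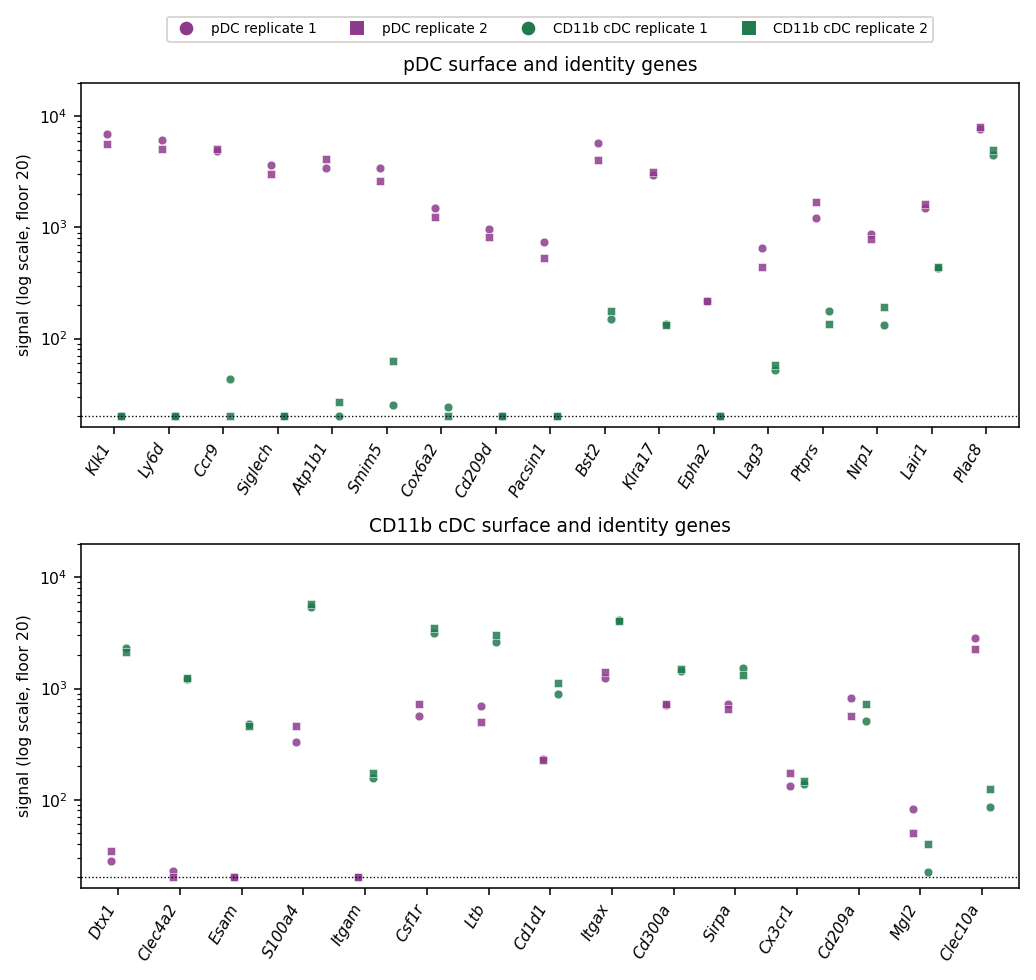
Signal on each of the 4 arrays (log axis, signals under 20 drawn at the dotted floor of 20) for the tested surface and identity genes of pDCs (top) and of CD11b cDCs (bottom), ordered by log2 difference. In the top panel both pDC arrays lie above both CD11b cDC arrays for all 17 genes, and in the bottom panel Clec10a and Mgl2, at the right, run the other way.

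Of 15 tested surface and identity genes of CD11b cDCs, 11 were higher in CD11b cDCs (15.5% over all genes), 2 were higher in pDCs and 2 were not called, with a median of -2.12. Without the sort genes Itgam and Itgax these counts were 9, 2 and 2 of 13. Dtx1, a regulator of Notch signalling, read 27.8 and 34.6 in pDCs and 2311 and 2133 in CD11b cDCs (log2 difference -6.16, SE 0.54, adjusted p = 7.22e-06). Clec4a2, an inhibitory C-type lectin receptor of the Dcir family, read 22.7 and 6.897 in pDCs and 1222 and 1253 in CD11b cDCs (log2 difference -5.86, SE 0.26, adjusted p = 3.34e-08). Esam, an adhesion molecule of the Notch2-dependent cDCs, read 19.4 and 9.26 in pDCs and 483 and 464 in CD11b cDCs and was at least 23.7-fold higher in CD11b cDCs. The calcium-binding protein gene S100a4 read 332 and 458 in pDCs and 5413 and 5799 in CD11b cDCs, a gap of -3.85 on the log2 scale. All 4 genes separated the arrays without overlap. The 2 members that went the other way were macrophage galactose-type lectins: Clec10a read 2848 and 2250.1 in pDCs and 86.3 and 126 in CD11b cDCs (log2 difference 4.602, SE 0.19, adjusted p = 2.62e-08), and Mgl2 read 82.3 and 50.05 in pDCs and 22.5 and 40.3 in CD11b cDCs (log2 difference 1.09, SE 0.28, adjusted p = 0.0115). Clec10a was thus 24.3-fold higher in pDCs, whereas the call of Mgl2, at signals near the filter of 50, was lost in 6 of 13 alternatives. Cx3cr1, the fractalkine receptor, read 133 and 173 in pDCs and 138 and 148 in CD11b cDCs, and the lectin gene Cd209a read 818 and 570.1 in pDCs and 511 and 729 in CD11b cDCs. These last genes were at a similar level in both populations by the rule given below with the shared genes.

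Transcription factors divided the populations in the same way. Of 13 tested factors with known roles in pDCs, 11 were higher in pDCs (14.3% over all genes) and none in CD11b cDCs (median log2 difference 2.66). Tcf4, the E protein that pDCs depend on, read 3832 and 3342 in pDCs and 241 and 268 in CD11b cDCs (log2 difference 3.82, SE 0.18, adjusted p = 6.49e-08). Irf8, required for pDC function and for CD8a cDCs, read 10515 and 9727 in pDCs and 708 and 747 in CD11b cDCs (log2 difference 3.798, SE 0.14, adjusted p = 1.16e-08). Both factors were present in CD11b cDCs as well, far above the floor, but 14.1-fold and 13.9-fold lower. Myb, a factor of haematopoietic progenitors, read 456 and 846 in pDCs and 28.9 and 38.1 in CD11b cDCs, and Ets1, a factor of lymphocytes, read 288 and 482 in pDCs and 25.4 and 2.22 in CD11b cDCs. The replicates of pDCs differed more for these genes than for Tcf4, and no array of CD11b cDCs came near them. Creb3l2, an ER-anchored factor, differed by 3.36 (SE 0.49, adjusted p = 0.000342). Cbfa2t3, a corepressor, was not called (629 and 538 in pDCs and 1249 and 1056 in CD11b cDCs, adjusted p = 0.18), although 1 of its 4 probe sets was higher in CD11b cDCs, and Hivep1 was not called either (226 and 260.2 in pDCs and 148 and 146 in CD11b cDCs). The E-box CAGGTG, which E proteins such as Tcf4 can bind, was found on either strand in the 250 bases before the start of 2 of 10 listed factors and 4 of 14 listed pDC surface genes with a promoter in the RefSeq table (GRCm38.p6), against 19.4% of 27025 genes.

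Of 15 tested factors of cDCs, 10 were higher in CD11b cDCs and none in pDCs (median -1.695), against 15.5% of all genes in that direction. Batf3, a factor needed by CD8a cDCs but present in other cDCs, read 21.1 and 35.4 in pDCs and 1115 and 1277 in CD11b cDCs (log2 difference -5.45, SE 0.24, adjusted p = 3.49e-08). Id2, the inhibitor of E proteins, read 78.5 and 90.5 in pDCs and 1586 and 1353 in CD11b cDCs (log2 difference -4.12, SE 0.34, adjusted p = 3.95e-06). Relb, an NF-kappaB subunit required for splenic CD11b cDCs, read 205 and 221 in pDCs and 1730.3 and 1675 in CD11b cDCs (log2 difference -2.999, SE 0.404, adjusted p = 0.000185). Both CD11b cDC arrays stood far above both pDC arrays for these factors. Zbtb46, a factor largely restricted to cDCs among immune cells, read 48.8 and 55.98 in pDCs and 274 and 253 in CD11b cDCs, and the orphan receptor gene Nr4a3 read 43.6 and 31.7 in pDCs and 541 and 530.5 in CD11b cDCs. Nr4a3 had a wide error (SE 1.03, adjusted p = 0.0158) and lost its call in 7 of 15 alternatives. Irf4, which CD11b cDCs need, was not called (358 and 431 in pDCs and 513 and 558 in CD11b cDCs, log2 difference -0.45, SE 0.33), and neither was Klf4 (1769 and 2656 in pDCs and 2439.8 and 1298 in CD11b cDCs, SE 1.13). Notch2, the receptor on which Esam-positive cDCs depend, was at a similar level (1792 and 1367 in pDCs and 1969 and 1972 in CD11b cDCs, 95% interval -0.73 to 0.06).

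Genes usually met in lymphocytes or their progenitors had the highest median difference of all lists after the pDC surface genes. Of 16 tested, 14 were higher in pDCs (14.3% over all genes) and none in CD11b cDCs, with a median log2 difference of 4.04. Dntt, the terminal transferase that adds nucleotides at antigen receptor joints, read 539 and 717 in pDCs and 1.32 and 3.23 in CD11b cDCs and was at least 31.1-fold higher in pDCs. Blnk, an adaptor of B cell receptor signalling, read 1551 and 1374 in pDCs and 1.01 and 10.9 in CD11b cDCs and was at least 73-fold higher. The T cell coreceptor chains Cd8b1 (1295 and 1088 in pDCs and 0.895 and 6.76 in CD11b cDCs) and Cd8a (781 and 1047 in pDCs and 17.3 and 3.17 in CD11b cDCs) were below the floor on both CD11b cDC arrays. In all 4 genes the pDC arrays lay far above the CD11b cDC arrays, and 5 of 5 probe sets of Cd8a were called in the same direction. Jchain, which joins polymeric antibodies, was not called (94.7 and 111 in pDCs and 16.95 and 20.7 in CD11b cDCs, SE 1.45, adjusted p = 0.271), and the surrogate light chain gene Vpreb3 was at the floor on all arrays but 1. Of this list 21 genes were on the array, and some did not pass the signal filter in any population. Rag1, which makes the breaks that Dntt acts on, was one of these, with a signal of at most 17.4 on the 4 arrays. Rag2, Igll1, Vpreb1 and Ptcra were outside the test too, with at most 27.8. The count and median of the list therefore cover only members that passed the filter.

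Defining markers of other cells were read on the same arrays to see what each sort held. Their counts stand beside 15.5% of all genes called higher in CD11b cDCs and 14.3% higher in pDCs. The T cell receptor complex genes Cd3d, Cd3e and Cd3g, and the B cell genes Cd79a, Pax5, Ebf1 and Fcer2a, were below the floor on all 4 arrays. Of 11 NK cell markers, 7 were below the floor on all 4 arrays, and Tbx21 (T-bet) was the only called member, at 1.11 and 15.3 in pDCs and 273 and 264 in CD11b cDCs. Among 9 B cell markers the summed signal was 125 and 138 in pDCs and 2988 and 2895 in CD11b cDCs. That sum came mainly from Cd22, an inhibitory sialic acid receptor (46.5 and 47.3 in pDCs and 2180.1 and 2035 in CD11b cDCs), and Fcrl1 (0.864 and 13.8 in pDCs and 485 and 584 in CD11b cDCs), while Ms4a1 (CD20) read 6.92 and 13.04 in pDCs and 162 and 122 in CD11b cDCs and Blk 55.03 and 29.7 in pDCs and 109.5 and 97.2 in CD11b cDCs. Over all 9, 4 were higher in CD11b cDCs and none in pDCs. The 9 T cell markers summed to between 186 and 220 on each array, and of them Cd5 was higher in CD11b cDCs (36.3 and 24.7 in pDCs and 158 and 147 in CD11b cDCs) and Cd28 and Thy1 in pDCs (log2 difference 1.84 and 1.32). Of 8 macrophage and monocyte markers, 4 were higher in CD11b cDCs, led by Adgre1 (F4/80; 26.8 and 31.3 in pDCs and 1299.8 and 1505 in CD11b cDCs) and the lysozyme gene Lyz2 (181 and 89.4 in pDCs and 1757 and 2499.6 in CD11b cDCs), with Vcam1 and Spic at lower signals (15.1 and 27.6 in pDCs and 75.9 and 84.2 in CD11b cDCs for Vcam1, 1.39 and 9.77 in pDCs and 52.5 and 68.2 in CD11b cDCs for Spic), and Ccr2 alone was higher in pDCs (453 and 537 in pDCs and 76.3 and 79.3 in CD11b cDCs). Their summed signal was 3656 and 3170 in pDCs and 5928 and 7291 in CD11b cDCs. Cd68, which was not called, held 2813 and 2377 of it in pDCs and 2592 and 2953 in CD11b cDCs. Cd14 and Hmox1 were not called either. Of this list 14 genes were on the array. Those outside the test, Marco, Trem1, S100a8, S100a9, Mertk and Fcgr1, did not pass the signal filter and read at most 28.3 on any of the 4 arrays. Of 10 markers of CD8a cDCs, 4 were higher in CD11b cDCs, Batf3, Tlr3, Wdfy4 and Naaa, and the adhesion molecule gene Cadm1 was higher in pDCs (155 and 164 in pDCs and 41.1 and 30.2 in CD11b cDCs, log2 difference 2.18, SE 0.17, adjusted p = 2.48e-06), whereas Xcr1 and Itgae, which define those cells, read at most 22.0 on any of the 4 arrays. The list summed to 1548 and 1575 in pDCs and to 7184 and 7000 in CD11b cDCs, of which Wdfy4 held 1207 and 1162 in pDCs and 5441 and 5130.2 in CD11b cDCs. The part of other cells in the signals of Lyz2, Adgre1, Ms4a1 and Blk was not tested.

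Part of the secretory machinery was higher in pDCs, cells known for their well developed endoplasmic reticulum. Of 24 tested genes of the ER and secretory machinery, 14 were higher in pDCs (14.3% over all genes) and none in CD11b cDCs (median 0.89). This count was 8 or 9 with any 1 of the 4 arrays left out, and 8 without the signal filter. Mzb1, a chaperone of antibody assembly, read 1709 and 1216 in pDCs and 7.91 and 7.95 in CD11b cDCs and was at least 72.1-fold higher in pDCs. Txndc5, a protein disulphide isomerase relative, read 1598 and 927 in pDCs and 216 and 242 in CD11b cDCs (log2 difference 2.41, SE 0.45, adjusted p = 0.00172), and Edem2, an enzyme of ER-associated degradation, read 1265 and 991 in pDCs and 262 and 389 in CD11b cDCs (log2 difference 1.81, SE 0.29, adjusted p = 0.000596). These stood apart from both CD11b cDC arrays. Xbp1, the transcription factor of the unfolded protein response, read 3165 and 3244 in pDCs and 1156 and 1028 in CD11b cDCs, and Hsp90b1, an ER chaperone that folds Toll-like receptors, read 2770.0 and 2947 in pDCs and 1020.5 and 844 in CD11b cDCs. Neither pair of groups overlapped, but the calls (adjusted p = 0.0198 and 0.0147) were lost in 6 and 5 of 15 alternatives. The most abundant ER chaperone, Hspa5 (BiP), did not follow: it read 7207 and 9106 in pDCs and 8330.4 and 7277 in CD11b cDCs and was at a similar level (95% interval -0.51 to 0.63). Ssr1 (1979 and 1948 in pDCs and 1877 and 1772 in CD11b cDCs) and Herpud1 (2231 and 2557 in pDCs and 2121 and 1869 in CD11b cDCs) were at a similar level too.

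Of 13 tested genes of endosomal sensing and the Irf7 pathway, 3 were higher in pDCs, 2 were higher in CD11b cDCs and 8 were not called, against 29.8% called over all genes. Tlr7, the endosomal receptor for single-stranded RNA, read 693 and 683 in pDCs and 240.2 and 329.6 in CD11b cDCs. Both pDC arrays lay above both CD11b cDC arrays and the log2 difference was 1.29 (SE 0.57), but it was not called with the spread shared by 13 arrays (adjusted p = 0.118), whereas a limma fit of the 4 arrays alone (adjusted p = 0.0303) and the fit with the scan day as a block called it. Its interval ran 0.03 to 2.55, so it was not at a similar level either. Irf7, the factor that drives interferon-alpha genes, read 1423 and 1133 in pDCs and 445 and 523 in CD11b cDCs (log2 difference 1.396, SE 0.47, adjusted p = 0.0468). It was no longer called in 11 of 15 alternatives. Pacsin1, an endocytic adaptor that pDCs need for interferon production, read 734 and 532 in pDCs and 10.1 and 1.82 in CD11b cDCs and was at least 31.2-fold higher in pDCs. Tlr3, a receptor for double-stranded RNA, ran the other way with 7.63 and 12.03 in pDCs and 137 and 137 in CD11b cDCs and was at least 6.85-fold higher in CD11b cDCs. The kinase gene Ikbke read 55.6 and 59.1 in pDCs and 4.13 and 2.81 in CD11b cDCs and was higher in pDCs, a call lost in 7 of 15 alternatives, and Plscr1 (37.8 and 26.6 in pDCs and 133 and 132 in CD11b cDCs) was higher in CD11b cDCs. The chaperone Unc93b1, which carries these receptors to endosomes (1358 and 788 in pDCs and 789.6 and 782 in CD11b cDCs), the transporter Slc15a4 (1238 and 1094 in pDCs and 930.4 and 1003 in CD11b cDCs) and the kinase Irak1 (553 and 779.7 in pDCs and 1051 and 583 in CD11b cDCs) were not called. The probe set of Tlr9, the DNA receptor of pDCs, read 23.5 and 17.9 in pDCs and 22.0 and 18.3 in CD11b cDCs and did not pass the signal filter in any population. The adaptor Myd88 was at a similar level (677 and 573 in pDCs and 822 and 898 in CD11b cDCs, interval -0.93 to 0.004).

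Of 10 tested surface Toll-like receptor genes and accessory proteins, which sense microbial lipids and proteins, 4 were higher in CD11b cDCs (15.5% over all genes), 1 was higher in pDCs (14.3% over all genes) and 5 were not called. Tlr1, a partner of Tlr2 for lipopeptides, read 17.1 and 24.3 in pDCs and 966 and 946 in CD11b cDCs (log2 difference -5.44, SE 0.41, adjusted p = 2.04e-06). Tlr6 (43.5 and 28.6 in pDCs and 168 and 167 in CD11b cDCs), Tlr2 (127 and 70.7 in pDCs and 298 and 339.6 in CD11b cDCs) and the flagellin receptor Tlr5 (31.5 and 47.6 in pDCs and 108 and 103 in CD11b cDCs) were 4.74-fold, 3.36-fold and 2.72-fold higher in CD11b cDCs, without overlap between the arrays. Cd180, a Toll-like receptor relative of B cells, was the member higher in pDCs (184 and 147 in pDCs and 64.3 and 59.1 in CD11b cDCs). Its partner Ly86 (MD-1) was not called although both were well above the floor (4868 and 4981 in pDCs and 3681 and 3910.5 in CD11b cDCs, interval -0.398 to 1.15).

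Of 12 tested uptake receptors, 4 were higher in pDCs (14.3% over all genes) and 5 in CD11b cDCs (15.5% over all genes). The beta-glucan receptor Clec7a (Dectin-1) read 89.5 and 233 in pDCs and 1281 and 1738 in CD11b cDCs, and the mannan receptor Clec4n (Dectin-2) read 33.2 and 21.6 in pDCs and 343 and 442 in CD11b cDCs (log2 difference -3.86, SE 0.23, adjusted p = 3.05e-07). The activating Fc receptor Fcgr4 read 24.9 and 24.1 in pDCs and 126 and 180.0 in CD11b cDCs. Each CD11b cDC array stood above each pDC array for these 3 genes. The endocytic receptor gene Lrp1 (36.95 and 32.7 in pDCs and 83.7 and 123 in CD11b cDCs) and the Fc receptor gene Fcgr3 (11.7 and 1.88 in pDCs and 31.8 and 64.5 in CD11b cDCs) were higher in CD11b cDCs at low signals, and Fcgr3 lost its call in 7 of 14 alternatives. On the pDC side, beside the lectins Clec10a and Cd209d given above, stood the scavenger receptor relatives Scarb2 (1366 and 1171 in pDCs and 364 and 481 in CD11b cDCs) and Scarb1 (757 and 749.6 in pDCs and 335 and 427 in CD11b cDCs), the latter with a call that was lost in 6 of 15 alternatives.

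Among 23 tested inhibitory and activating receptors and adaptors, 6 were higher in pDCs (14.3% over all genes) and 6 in CD11b cDCs (15.5% over all genes). Both counts were 4 when no floor was set. Lag3, an inhibitory receptor for MHC class II, read 652 and 440.1 in pDCs and 51.9 and 57.4 in CD11b cDCs (log2 difference 3.29, SE 0.19, adjusted p = 2.3e-07). Ceacam1, an adhesion molecule with inhibitory motifs, read 470.1 and 656 in pDCs and 60.98 and 31.2 in CD11b cDCs, and 6 of 6 probe sets were called. Lair1, a collagen receptor, read 1486 and 1615 in pDCs and 436 and 444 in CD11b cDCs. pDCs thus held the higher signal of these 3 genes on every array. On the other side Clec4a3 read 32.4 and 24.5 in pDCs and 1084 and 1472 in CD11b cDCs and Pilrb1 27.6 and 21.5 in pDCs and 284 and 324 in CD11b cDCs, with log2 differences of -5.49 and -3.64. The inhibitory receptor genes Fcgr2b (259.9 and 213 in pDCs and 441 and 610.2 in CD11b cDCs) and Cd300a (706 and 733 in pDCs and 1442 and 1493 in CD11b cDCs) were higher in CD11b cDCs by smaller margins, and Cd300a lost its call in 4 of 15 alternatives. The signalling adaptors of both sets did not pass the test: Tyrobp (DAP12) read 7833 and 6758 in pDCs and 5822 and 5417 in CD11b cDCs, and the phosphatase gene Ptpn6 (SHP-1) read 4877 and 3764 in pDCs and 4289 and 4287 in CD11b cDCs. The latter was at a similar level, though 1 of its 2 probe sets was called higher in pDCs.

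Chemokine and positioning receptors included some of the widest gaps. Of 15 tested, 5 were higher in pDCs (14.3% over all genes), 3 in CD11b cDCs (15.5% over all genes) and 7 were not called. Next to Ccr9 stood S1pr4, a sphingosine phosphate receptor (625 and 428 in pDCs and 22.7 and 36.8 in CD11b cDCs; log2 difference 4.16, SE 0.34, adjusted p = 3.74e-06), and Cxcr3, a receptor for interferon-induced chemokines (1677 and 1269.6 in pDCs and 83.3 and 112 in CD11b cDCs; log2 difference 3.92, SE 0.45, adjusted p = 5.6e-05). Ccr7, which guides DCs into T cell zones, read 59.1 and 24.98 in pDCs and 556 and 592 in CD11b cDCs (log2 difference -3.901, SE 0.35, adjusted p = 8.98e-06), and Ccr6 read 114 and 80.5 in pDCs and 451 and 599 in CD11b cDCs. The receptor genes called higher in CD11b cDCs were thus Ccr7, Ccr6 and the leukotriene receptor gene Ltb4r1 (1.47 and 0.951 in pDCs and 69.9 and 95.5 in CD11b cDCs), and those called higher in pDCs were Ccr9, S1pr4, Cxcr3, Ccr2 and Ccr1 (64.3 and 109 in pDCs and 9.27 and 7.68 in CD11b cDCs). Gpr183 (EBI2), which places CD11b cDCs in the bridging channels of the spleen, read 531 and 715 in pDCs and 1254 and 1005 in CD11b cDCs and was not called (adjusted p = 0.112).

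Of 22 tested cytokine and growth factor receptors, 6 were higher in pDCs (14.3% over all genes) and 6 in CD11b cDCs (15.5% over all genes). Il7r, the interleukin-7 receptor chain of lymphoid progenitors, read 2113 and 3019.8 in pDCs and 151 and 158 in CD11b cDCs (log2 difference 4.03, SE 0.21, adjusted p = 1.37e-07). The type I interferon receptor chains, of which Ifnar2 was named after its values were seen, were both higher in pDCs, with 2446 and 1921 in pDCs and 848 and 937 in CD11b cDCs for Ifnar2 and 489 and 384 in pDCs and 158 and 187 in CD11b cDCs for Ifnar1, neither of which had overlapping arrays (log2 difference 1.28 and 1.33). The interferon-gamma receptor chain Ifngr1 went the other way: 127 and 163 in pDCs and 1118 and 1511 in CD11b cDCs (log2 difference -3.18, SE 0.28, adjusted p = 7.83e-06). Kit (116 and 149 in pDCs and 876 and 821 in CD11b cDCs), Csf1r (563 and 727 in pDCs and 3187 and 3473 in CD11b cDCs) and Tnfrsf1b (298 and 229 in pDCs and 983 and 1049.8 in CD11b cDCs) were higher in CD11b cDCs as well, and so was the GM-CSF receptor chain gene Csf2ra (233 and 186 in pDCs and 728 and 799 in CD11b cDCs). The TGF-beta receptor genes Tgfbr3 (127 and 77.8 in pDCs and 2.33 and 29.5 in CD11b cDCs) and Tgfbr1 (914 and 1119 in pDCs and 387 and 395 in CD11b cDCs) were higher in pDCs. Csf2rb2, a beta chain of the interleukin-3 receptor, was 8.76-fold higher in pDCs (2659 and 2778 in pDCs and 285 and 338 in CD11b cDCs), while Csf2rb, the beta chain shared with GM-CSF, was not called (2202 and 2086 in pDCs and 1385 and 1356 in CD11b cDCs). Flt3, on whose ligand both populations depend, read 996 and 1007 in pDCs and 1057 and 1169 in CD11b cDCs. Its 4 signals lay close together, and its interval, -0.85 to 0.54, met the rule for a similar level.

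Presentation and costimulation were graded. Over all genes, 15.5% were called higher in CD11b cDCs and 14.3% higher in pDCs. Of 14 tested genes of the MHC class II pathway, 6 were higher in CD11b cDCs and none in pDCs (median -0.61), a count that was 3 in 7 of 15 alternatives, among them each omission of 1 of the 4 arrays. The chain genes H2-Aa (8534 and 9373 in pDCs and 10703 and 12026 in CD11b cDCs) and H2-Ab1 (6569.7 and 6891 in pDCs and 9784 and 10198 in CD11b cDCs) were among the highest signals of both populations and were not called, although 2 of 3 probe sets of H2-Ab1 were called higher in CD11b cDCs. The invariant chain gene Cd74 was at a similar level (7519 and 6790.3 in pDCs and 9082 and 9750.2 in CD11b cDCs, interval -0.92 to 0.12), and so was the protease gene Ctss (6873 and 7202 in pDCs and 7557 and 7301 in CD11b cDCs). Ciita, the master activator, read 115 and 100.2 in pDCs and 461 and 382 in CD11b cDCs (log2 difference -1.97, SE 0.22, adjusted p = 5.29e-05), and H2-Ob, a modulator of peptide loading, read 177 and 345 in pDCs and 1742 and 1506 in CD11b cDCs (log2 difference -2.71, SE 0.43, adjusted p = 0.000563). Cd83, which stabilises class II at the surface, read 149 and 119 in pDCs and 4619 and 4237 in CD11b cDCs (log2 difference -5.05, SE 0.24, adjusted p = 7.09e-08). H2-Oa (1741 and 1536 in pDCs and 3566 and 3786 in CD11b cDCs) and H2-DMb2 (954 and 1117 in pDCs and 2341 and 2250.2 in CD11b cDCs), chains of the peptide-loading molecules, were called as well, and those calls were lost in 6 and 7 of 15 alternatives. Cd83 had the widest gap of the list, 33.2-fold on the linear scale.

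Of 11 tested costimulatory and coinhibitory molecules, 8 were higher in CD11b cDCs (15.5% over all genes) and Cd200 alone was higher in pDCs (median -2.37). Cd86 read 43.8 and 53.1 in pDCs and 513 and 488 in CD11b cDCs (log2 difference -3.37, SE 0.54, adjusted p = 0.000681). Cd80, its partner for Cd28, read 1.38 and 1.598 in pDCs and 172 and 155 in CD11b cDCs and was at least 8.16-fold higher in CD11b cDCs. The inhibitory ligands Cd274 (PD-L1; 91.6 and 94.5 in pDCs and 779 and 749 in CD11b cDCs) and Pdcd1lg2 (PD-L2; 5.82 and 0.937 in pDCs and 169.5 and 189 in CD11b cDCs) lay on the same side. Cd86, Cd80, Cd274 and Pdcd1lg2 were therefore each higher on both CD11b cDC arrays than on both pDC arrays. Havcr2 (TIM-3) showed the largest gap of the list (47.1 and 59.6 in pDCs and 1229.6 and 1212 in CD11b cDCs; log2 difference -4.53, SE 0.16, adjusted p = 8.31e-09). Cd200, an inhibitory ligand for myeloid cells, read 282 and 294 in pDCs and 28.7 and 42.4 in CD11b cDCs, and was the only member above the CD11b cDC arrays by the test. Cd48 was not called (1818 and 1249 in pDCs and 1491 and 1622 in CD11b cDCs).

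**Figure D3:**
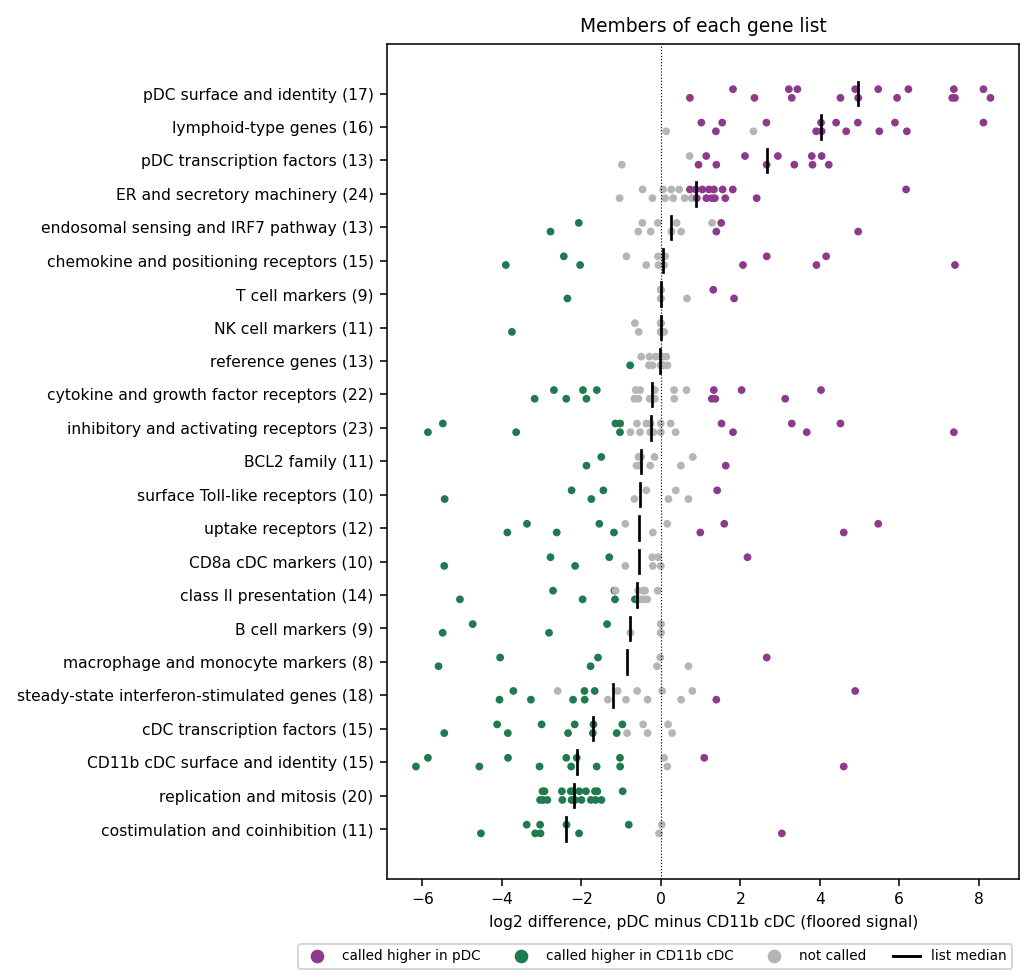
Log2 difference (pDC minus CD11b cDC, floored signal) of each tested member of the 23 gene lists, with the number tested in brackets and the list median as a black bar. Points are coloured by call, and the lists run from a median of 4.965 for pDC surface and identity genes to -2.374 for costimulation and coinhibition.

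Replication and mitosis genes lay on the CD11b cDC side. Of 20 tested, 20 were higher in CD11b cDCs, with a median log2 difference of -2.18 and a range of -3.04 to -0.96, against 15.5% of all genes in that direction. Birc5 (survivin), a mitotic regulator, read 77.5 and 42.02 in pDCs and 418 and 525 in CD11b cDCs (log2 difference -3.04, SE 0.38, adjusted p = 0.000103). Cdk1, the mitotic kinase, read 47.4 and 29.7 in pDCs and 258 and 339 in CD11b cDCs, and Rrm2, the regulated subunit of ribonucleotide reductase, read 102 and 83.2 in pDCs and 665 and 779 in CD11b cDCs (log2 difference -2.97, SE 0.43, adjusted p = 0.000307). Neither pDC array approached a CD11b cDC array in these genes. Ccna2 read 90.9 and 62.9 in pDCs and 568 and 583 in CD11b cDCs and Ube2c, a ubiquitin-conjugating enzyme of the anaphase-promoting complex, 61.97 and 37.1 in pDCs and 334 and 360.2 in CD11b cDCs. The genes were not silent in pDCs: the pDC arrays were above the floor for all 20.

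Most promoters of this group held a letter pattern that the grouping had not used. It was picked for this list and searched in no other, so its count is a description. CCAAT, the box bound by factors such as NF-Y, searched on both strands, was found in the 250 bases before the start of 16 of the 19 listed genes with a promoter in the RefSeq table (GRCm38.p6), and in 37.5% of 27025 genes overall. Of the 17 called members among the 19, 15 held it. All 20 tested members of the list were called, so there was no tested but uncalled member to set beside them. The upstream stretches of a pair of members are shown because they hold several copies, and they were chosen after the matches were seen. Ccnb2 (cyclin B2) lies at chr9:70421555-70421804 on the minus strand with 3 copies, and Cdc20, an activator of the anaphase-promoting complex, at chr4:118437344-118437593 on the minus strand with 2. They read 71.7 and 48.96 in pDCs and 234 and 319 in CD11b cDCs for Ccnb2 and 92.3 and 75.8 in pDCs and 367 and 381 in CD11b cDCs for Cdc20. Capitals mark CCAAT in the sequence 5′ to 3′, ending at the base before the start site. A match describes letters and not a bound site.
Ccnb2: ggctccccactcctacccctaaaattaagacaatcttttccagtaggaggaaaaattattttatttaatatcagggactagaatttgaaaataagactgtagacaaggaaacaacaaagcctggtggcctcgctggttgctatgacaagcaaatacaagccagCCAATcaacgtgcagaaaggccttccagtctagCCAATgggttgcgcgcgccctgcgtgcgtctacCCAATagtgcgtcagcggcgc
Cdc20: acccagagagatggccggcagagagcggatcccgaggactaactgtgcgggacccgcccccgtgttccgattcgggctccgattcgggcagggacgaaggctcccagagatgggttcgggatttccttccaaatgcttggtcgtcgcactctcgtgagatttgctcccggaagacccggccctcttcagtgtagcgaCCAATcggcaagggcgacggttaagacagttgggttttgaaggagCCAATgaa

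Interferon-stimulated genes were not higher as a group in pDCs, the interferon-producing cells. Of 18 tested, 7 were higher in CD11b cDCs (15.5% over all genes), 2 in pDCs (Irf7 and the sort antigen Bst2; 14.3% over all genes) and 9 were not called, with a median of -1.21. The count of 7 was 4 without pDC replicate 2 or without CD11b cDC replicate 2. Oas2, an oligoadenylate synthetase that triggers RNA decay, read 26.7 and 17.1 in pDCs and 390.4 and 379.8 in CD11b cDCs (log2 difference -4.06, SE 0.31, adjusted p = 2.18e-06). Rigi, a cytosolic RNA sensor listed under its older symbol Ddx58, read 50.5 and 36.1 in pDCs and 419 and 404 in CD11b cDCs (log2 difference -3.27, SE 0.33, adjusted p = 1.83e-05), and Oas3 read 16.5 and 2.57 in pDCs and 85.1 and 100.4 in CD11b cDCs. These genes were low or below the floor in pDCs, and both CD11b cDC arrays stood above both pDC arrays. Ifit3, an inhibitor of viral replication, read 65.1 and 34.5 in pDCs and 574 and 670.4 in CD11b cDCs with a wide error (SE 0.97, adjusted p = 0.0137), and Oas1a read 283 and 282 in pDCs and 1043 and 1098 in CD11b cDCs (adjusted p = 0.0106). Their calls were lost in 4 and 5 of 15 alternatives, among them for both genes without pDC replicate 2 and without either CD11b cDC replicate. Usp18, which dampens interferon signalling, was not called (660.3 and 420.5 in pDCs and 608 and 726 in CD11b cDCs), and the arrays of the populations overlapped for it. Ifit2 was not called either (339 and 287 in pDCs and 638 and 687 in CD11b cDCs, SE 0.803).

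**Figure D4:**
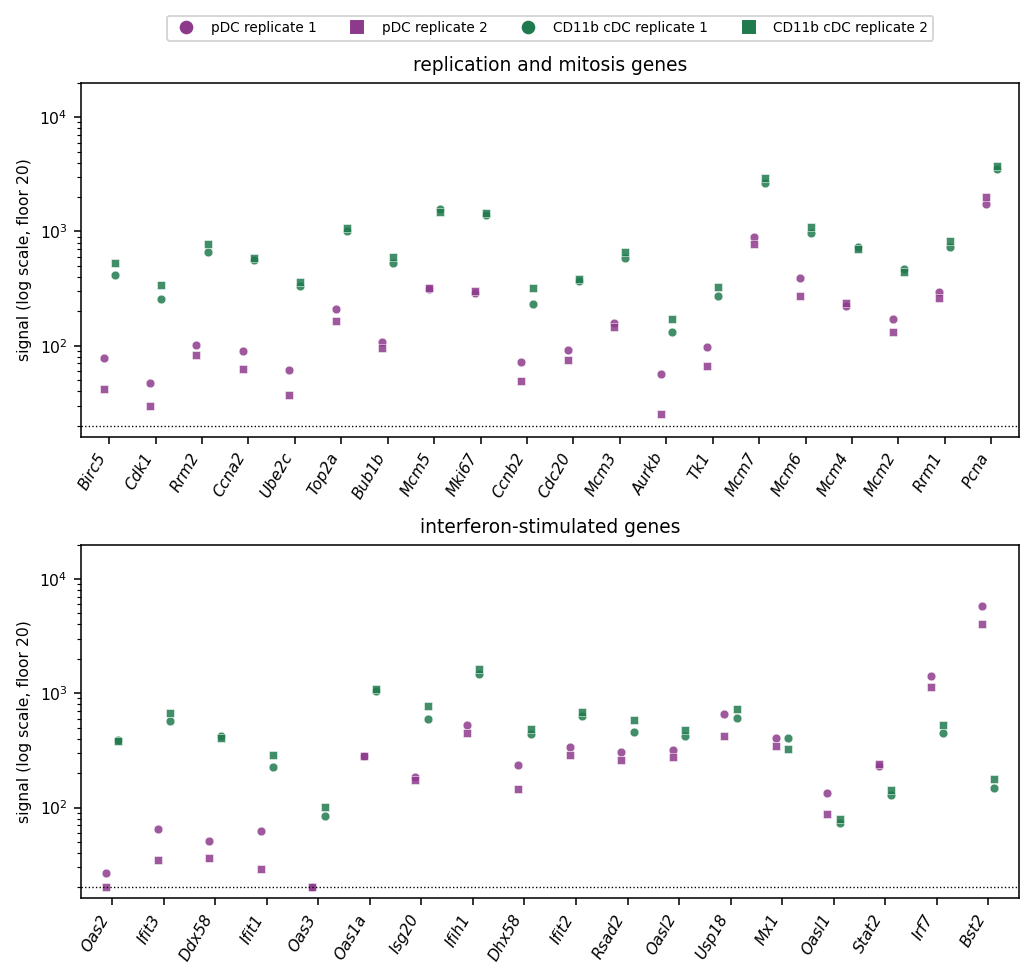
Signal on each of the 4 arrays (log axis, signals under 20 drawn at the dotted floor of 20) for tested replication and mitosis genes (top) and interferon-stimulated genes (bottom), ordered by log2 difference. All 20 replication genes are higher on both CD11b cDC arrays, whereas the interferon-stimulated genes run from Oas2 at the left, higher in CD11b cDCs, to Bst2 at the right, higher in pDCs.

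The core of the interferon-stimulated response element, GAAA followed after any 2 bases by GAAA, was searched in the 250 bases before the start on both strands and occurred in 3.46% of 27025 genes. Of 16 listed interferon-stimulated genes with a promoter in the table, 8 held it. They included 1 of the 2 called higher in pDCs, Bst2, and 3 of the 6 called higher in CD11b cDCs, Ifit3, Oas1a and Oas3, so the element stood before genes of both directions. The upstream sequences of Bst2 (chr8:71537473-71537722, minus strand), Ifit3 (chr19:34583279-34583528, plus strand) and Oas1a (chr5:120907526-120907775, minus strand) are shown to set these directions side by side. Capitals mark the element, on the strand of the gene or, as TTTC, any 2 bases and TTTC, on the other strand, and overlapping matches run together.
Bst2: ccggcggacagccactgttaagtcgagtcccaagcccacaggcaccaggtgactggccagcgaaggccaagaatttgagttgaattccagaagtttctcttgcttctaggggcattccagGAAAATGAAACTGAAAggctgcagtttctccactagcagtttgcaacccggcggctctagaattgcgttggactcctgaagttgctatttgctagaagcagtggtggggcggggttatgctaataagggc
Ifit3: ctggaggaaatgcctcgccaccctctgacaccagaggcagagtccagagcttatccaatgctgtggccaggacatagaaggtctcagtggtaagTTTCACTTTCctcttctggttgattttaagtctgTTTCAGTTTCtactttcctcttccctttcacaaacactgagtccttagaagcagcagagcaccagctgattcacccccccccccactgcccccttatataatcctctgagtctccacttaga
Oas1a: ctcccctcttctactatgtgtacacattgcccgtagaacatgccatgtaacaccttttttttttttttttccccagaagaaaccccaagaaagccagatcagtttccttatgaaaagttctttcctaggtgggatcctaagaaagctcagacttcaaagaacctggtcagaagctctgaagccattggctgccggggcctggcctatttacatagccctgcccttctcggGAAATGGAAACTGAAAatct
Bst2, on top, was 29.7-fold higher in pDCs, while Ifit3 and Oas1a were 13.1-fold and 3.79-fold higher in CD11b cDCs. In Bst2 the first match began 130 bases before the start, in Ifit3 156 and in Oas1a 20.

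Of 11 tested genes of the BCL2 family, which set cell survival, 1 was higher in pDCs, 2 were higher in CD11b cDCs and 8 were not called, against 29.8% called over all genes, and 2 of the 11 met the rule for a similar level given below. Bcl2l2 (Bcl-w), a survival protein, read 127 and 163 in pDCs and 37.2 and 57.7 in CD11b cDCs (log2 difference 1.63, SE 0.27, adjusted p = 0.000913). The death-promoting Pmaip1 (Noxa) read 396 and 851 in pDCs and 2377 and 1895 in CD11b cDCs and Bmf 93.97 and 59.4 in pDCs and 185 and 241 in CD11b cDCs, with calls that were both lost in 11 of 15 alternatives. Mcl1, a survival protein that DCs need, met the rule for a similar level (2274 and 3010.0 in pDCs and 3672 and 3699.8 in CD11b cDCs), though 2 of its 6 probe sets were called higher in CD11b cDCs.

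Genes that both populations shared were sought with an interval rather than a missed threshold. A gene was taken as being at a similar level when the 95% interval of its log2 difference lay within -1 and 1 and its signal was at least 100 on all 4 arrays. By this rule 3127 genes (33.3% of those tested) qualified, or 59.3% of the 5273 genes (56.1% of those tested) with that signal. The rule did not use the call, so a called gene that differed less than 2-fold could qualify. Rgl1, given below, qualified with an interval of -0.84 to -0.05, which leaves out 0. Of 13 tested reference genes 11 qualified, among them Actb (10645 and 10142 in pDCs and 11478 and 11208 in CD11b cDCs), B2m (8163 and 7297 in pDCs and 8113 and 6986 in CD11b cDCs) and Rpl13a (9490.3 and 8916 in pDCs and 9382 and 9150.1 in CD11b cDCs), and the median of that list was -0.01. Hprt alone was called, 1.71-fold higher in CD11b cDCs.

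Klrd1 (CD94), a lectin-like receptor chain known from NK cells, read 2561 and 2746 in pDCs and 2339 and 2135 in CD11b cDCs. The pDC arrays were slightly higher without overlap, and all 4 signals stood above those of CD8a cDCs, whose mean was 215, and of B cells, whose mean was 47.2. They lay below the means of NK cells (8649) and CD8 T cells (3709). The log2 difference of 0.25 was not called (adjusted p = 0.768), but its interval with the spread shared by 13 arrays ran -0.82 to 1.31 and so passed the limit on 1 side. In the fit of the 4 arrays alone the interval ran from -0.04 to 0.53. Its usual partner chain Klrc1 (NKG2A) was below the floor on all 4 arrays, and the killer lectin-like receptors Klrk1 and Klre1 read at most 76.1 on any of the 4. Klrc1, Klrk1 and Klre1 were named after their values were seen. Tlr7, described above, was expressed in both populations and listed at a mean of 4.05 in CD8a cDCs, but did not meet the rule.

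Of the genes at a similar level, Cd209a stood highest above the other 4 populations. Its mean signal was 18.8 in CD8a cDCs, the highest of the 4, against 818 and 570.1 in pDCs and 511 and 729 in CD11b cDCs. The histamine receptor gene Hrh1 read 172 and 162 in pDCs and 134 and 192 in CD11b cDCs, the small GTPase gene Rnd3 549 and 758 in pDCs and 434 and 593 in CD11b cDCs and Rgl1, a Ral activator, 196 and 172 in pDCs and 229 and 273 in CD11b cDCs. These had CD8a cDC means of 25.2, 88.98 and 8.596. The transcription factor gene Cebpd (235 and 187 in pDCs and 198 and 245 in CD11b cDCs), the semaphorin receptor gene Plxnb2 (465 and 403 in pDCs and 510.4 and 498 in CD11b cDCs), the tetraspanin gene Tspan2 (426 and 320.2 in pDCs and 431 and 362 in CD11b cDCs) and the lysosomal protease gene Ctsa (2644 and 2374 in pDCs and 2626 and 2865 in CD11b cDCs) were of the same kind. So were Zfp467 (136 and 103 in pDCs and 114 and 104 in CD11b cDCs) and Phc1 (359 and 416 in pDCs and 441 and 432 in CD11b cDCs), which encode a zinc finger protein and a Polycomb protein. They were chosen as similar in pDCs and CD11b cDCs and high against the rest, so this pattern is a description.

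Measured against CD8a cDCs alone, further shared genes stood out. Fcer1g, the signalling chain of Fc receptors, read 2678 and 2081 in pDCs and 2813 and 3281 in CD11b cDCs with a CD8a cDC mean of 148. Cd72, an inhibitory receptor of B cells, read 521 and 507 in pDCs and 646 and 592 in CD11b cDCs with a CD8a cDC mean of 13. The calcium-binding protein gene S100a6 (1518 and 1138 in pDCs and 1174 and 1431 in CD11b cDCs) and the sialyltransferase gene St8sia1 (304 and 337 in pDCs and 251 and 263 in CD11b cDCs) had CD8a cDC means of 135 and 21.98. Arhgef18 read 346 and 177 in pDCs and 258 and 252 in CD11b cDCs with a CD8a cDC mean of 37.9. Outside the DCs these genes were not rare: Fcer1g had a mean of 3811 in NK cells and Cd72 of 1883 in B cells.

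**Figure D5:**
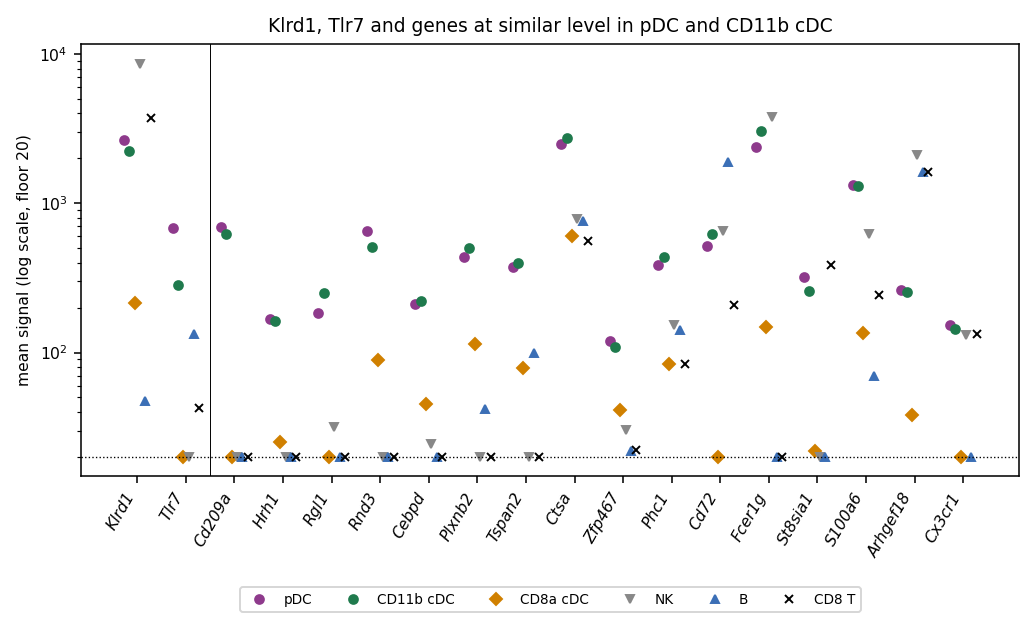
Mean signal (log axis, means under 20 drawn at the dotted floor of 20) of Klrd1, Tlr7 and the genes at a similar level that stood furthest above the other 4 populations or above CD8a cDCs, in the 6 populations (2 arrays each, 3 for B cells). The pDC and CD11b cDC symbols lie next to each other for the genes right of the line, which were chosen for it, and apart for Tlr7.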

How the data were processed

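Splenocytes were released with collagenase and sorted by flow cytometry, and RNA was amplified in 2 rounds and hybridised to Affymetrix Mouse430_2 arrays, 1 per sample. The deposited values are MAS5 signal intensities that the authors scaled to a target of 100, trimming 2% at both ends. These intensities were kept, signals under 20 were set to 20 and log2 was taken. Of 45101 probe sets, 34958 had 1 gene symbol in the platform annotation, 932 had several and 9211 had none. Probe sets were kept where every replicate of some population reached 50, and 1 was used per gene, that with the highest mean over 13 arrays. limma 3.58.1 (R 4.3.3) was run on the 13 arrays with 1 mean for each population (7 residual degrees of freedom), two-sided, with Benjamini-Hochberg adjustment over 9391 genes and a threshold of 0.05. Intervals are 95% limma intervals. Fold changes are on the floored scale and understate differences of low genes. "At least" marks folds against a population with both arrays under 20.

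The study's rank-invariant normalization was run as an alternative. The duplicates of the 3 DC populations and NK cells came from the same 2 sorting experiments on pooled mice, and B cells and CD8 T cells from other experiments. The p-values rest on a spread shared by all 6 populations and not on the pools of pDCs and CD11b cDCs alone. Among the arrays in that spread, those of B cells held 3, 2 and 1 mice and those of CD8 T cells 1 mouse each. The labels do not say that a replicate number marks an experiment, and same-numbered deviations correlated at -0.199 for pDCs with CD11b cDCs and between -0.159 and 0.178 for the other pairs of these populations, so the numbers were not taken to pair the arrays. Members and gene lists were chosen with earlier results of these data known, and the 302 listed genes tested may stand in more than 1 list. Genes were named by a rule: Siglech, Sirpa, Klrd1, Tlr7, the 12 largest called differences each way without overlap, the 10 genes at a similar level highest above the other 4 populations and above CD8a cDCs, and of each list up to 5 called members each way and 4 not called, of which those not called are given in part. Itgax, Cd3d, Cd79a, Ccnb2, Cdc20, Ifnar2, Klrc1, Klrk1, Klre1, Rag1, Tlr9 and the other listed genes given as outside the test were named beside it, after their values were seen. Promoters and their coordinates came from RefSeq (GRCm38.p6).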

Additional observations from a re-analysis of the deposited data

How the results depend on the processing

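No called gene was called in the opposite direction in any alternative fit. Among 1175 called genes with several probe sets, 6 had another probe set called in the opposite direction. The 2802 called genes numbered 2062 (scan day as a block, which rests on CD11b cDC replicate 2 alone) to 2911 (mean of all probe sets of a gene) in the fits on all arrays, and 2009 to 2217 with 1 of the 4 arrays left out (960 to 1025 higher in pDCs, 1040 to 1208 higher in CD11b cDCs). The replicate block left 2659 calls, of which 2629 were shared, and with the pDC numbers crossed, an alternative chosen after seeing the data, 2800 were called. Of the 302 listed genes tested, 76 were higher in pDCs (14.3% over all genes) and 99 in CD11b cDCs (15.5% over all genes). With an array left out these counts were 63 to 64 and 82 to 87. The 3127 similar-level genes became 2070 with an interval within 0.8, and 2276 to 2512 with an array left out. Of 133 named called genes, 100 kept their call in all alternatives that tested them, and Irf7, Naaa, Pmaip1 and Bmf lost it in 11. Signals near the floor of 20 leave low genes without an order.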
